A study of Mus musculus with 16 samples.

Results

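Cd68, Lyz2, Fcgr1, Fcgr3, Itgam, Csf1r, Adgre1, Msr1, Cd14 and Trem2 are genes by which macrophages and monocytes are usually recognised. They were followed across mouse skin wounds that healed with or without mechanical load. The members were all probe sets whose single gene symbol on the platform is one of these 10 names, which gave 17 of the 34945 probe sets with 1 symbol and 10 of the 18193 genes. Where a gene had several probe sets, the one that varied most over the arrays (widest interquartile range) stood for it. The arrays were Affymetrix GeneChips of RNA from dorsal incisional wounds of wild-type C57BL/6 mice, all labelled female, in a murine model of hypertrophic scarring. The 16 arrays formed 4 groups of 4. Unstressed wounds were taken at day 6 or day 14, and stressed wounds were taken at day 6 after 48 h of load or at day 14 after 10 days of load. All groups carried an incision, so no group was intact skin, and the sources used here state no age for the mice. The design names 4 mice per group and time point. Whether an array held RNA of 1 mouse or of a pool is not stated, so p-values measure the spread between arrays.

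Monocytes enter a wound from the blood and become macrophages, which clear debris and dead cells, release growth factors and later thin out as the wound closes. The genes followed here cover different tasks of these cells. Cd68 and Lyz2 encode a lysosomal membrane glycoprotein and the bacteria-degrading enzyme lysozyme. Fcgr1 and Fcgr3 encode receptors for the Fc part of IgG, and Itgam encodes the alpha chain of complement receptor 3 (CD11b). Csf1r encodes the receptor for the growth factor CSF1, on which most macrophages depend, and Adgre1 encodes an adhesion-type receptor that is a classic surface marker of mouse macrophages. Msr1 is a scavenger receptor for modified lipoproteins, Cd14 presents lipopolysaccharide to TLR4, and Trem2 is a lipid-sensing receptor that signals through TYROBP. Several of them, Itgam, Lyz2, Fcgr3 and Cd14 among them, are also made by neutrophils.

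Each value is a log signal, read as log2, that the authors centred probe set by probe set on an unknown reference. A value of 0 is therefore that reference and not absence, levels cannot be set against each other between genes, and detection could not be judged. For the same reason the tissue label could not be checked against the level of keratinocyte, fibroblast or macrophage markers. Array medians lay between -0.01 and 0.05. The spread of all probe sets on an array (SD) was 0.264 to 0.410 at day 6 and 0.545 to 0.771 at day 14. Xist, which is expressed from the inactive X chromosome of females, stood at 5.98 to 6.30 on replicates 3 and 4 of both day 14 groups and at -0.53 to 0.81 on the other 12 arrays, although all arrays are labelled female. Each day 14 group held both kinds of array in equal number, while all day 6 arrays were of the low kind. Results of the day 14 comparison are therefore also given within each kind.

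Through their representing probe sets, which were picked for varying most over these arrays, all 10 genes followed the same order of group means. The stressed wounds at day 6 were highest, the unstressed wounds at day 6 came next, then the stressed wounds at day 14, and the unstressed wounds at day 14 were lowest. Cd68 stood at 0.63 ± 0.40, 0.24 ± 0.43, -0.92 ± 0.73 and -2.68 ± 0.44 in this order (mean ± SD, n = 4 each). Further probe sets of Fcgr1 and Csf1r kept the order, while those of Msr1 and Trem2 did not. Msr1 1425434_a_at was highest in stressed wounds at day 14, with a mean of 0.44. Trem2 1421226_at stood at -0.10 (unstressed) and -0.03 (stressed) at day 6, and higher at day 14, at 0.57 and 0.61. Neighbours in the order of the representing probe sets did not all differ beyond their spread. The day 6 groups overlapped in 9 of the 10 genes, the exception being Trem2. The unstressed day 6 and stressed day 14 arrays overlapped in 8 genes and were apart in Fcgr1 and Cd14. The stressed and unstressed day 14 arrays were apart in 8 genes, all but Msr1 and Cd14. In bulk tissue, fewer macrophages and less of these RNAs per macrophage cannot be told apart.

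**Figure D1:**
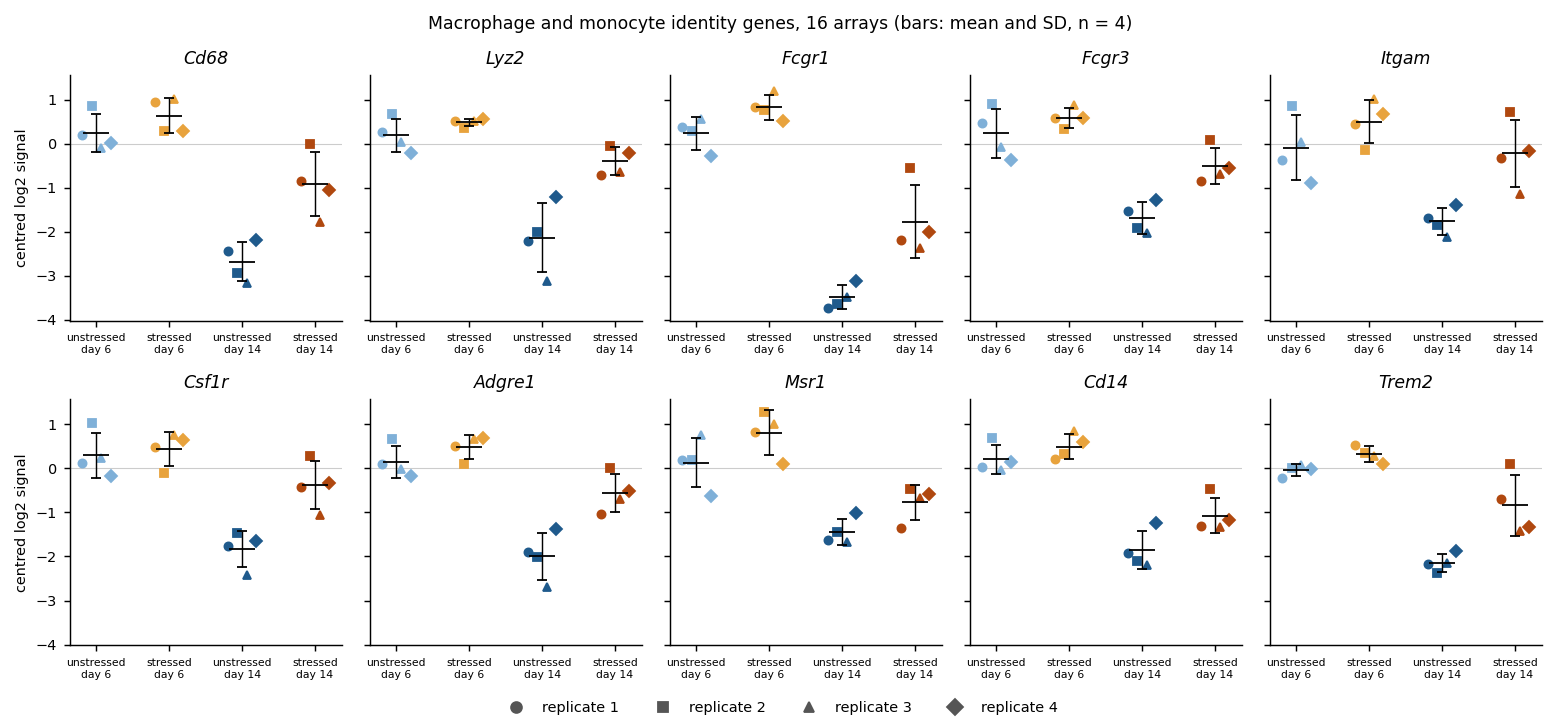
Centred log2 signal of the 10 genes on each of the 16 arrays, 1 panel per gene with its representing probe set. Points are arrays, bars are group means, and the 4 groups stand side by side; the unstressed day 14 wounds are the lowest group in all 10 panels.

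**Figure D2:**
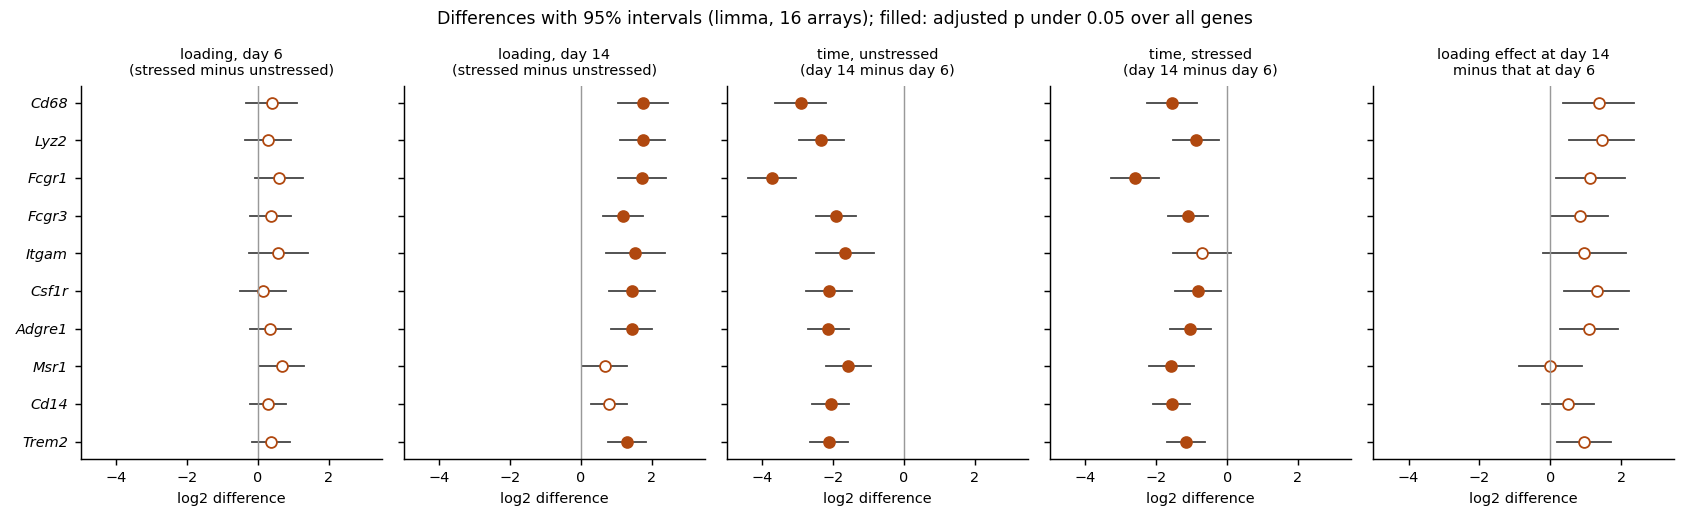
Differences in log2 signal with 95% intervals from the limma fit for the 10 genes, stressed minus unstressed at each day, day 14 minus day 6 in each kind of wound, and, in the last panel, the load effect at day 14 minus that at day 6. Filled points passed an adjusted p of 0.05: none of the day 6 loading differences, 8 of those at day 14, 10 of the time differences in unstressed wounds, 9 in stressed wounds and none in the last panel.

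RefSeq promoter sequence was used for 6 of the 10, in windows of 300 bases on GRCm38.p6 that run from 250 bases before the annotated start to 50 after it. They are shown because the representing probe sets of the 10 genes had the same order of groups. The 100 bases before the start are printed 5′ to 3′ on the gene's strand. Capitals mark matches, on either strand, to GAGGAA, the core letters recognised by PU.1, to TTGCNNAA, a C/EBP half-palindrome, or to TGANTCA, the AP-1 site.
Cd68 (chr11:69666171-69666270, minus strand): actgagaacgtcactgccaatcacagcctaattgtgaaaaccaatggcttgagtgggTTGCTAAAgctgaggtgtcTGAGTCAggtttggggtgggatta
Lyz2 (chr10:117282273-117282372, minus strand): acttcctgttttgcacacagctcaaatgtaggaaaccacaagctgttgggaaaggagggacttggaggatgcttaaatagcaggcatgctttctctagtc
Fcgr1 (chr3:96293970-96294069, minus strand): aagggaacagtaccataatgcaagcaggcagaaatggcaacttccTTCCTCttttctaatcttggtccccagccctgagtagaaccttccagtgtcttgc
Fcgr3 (chr1:171059404-171059503, minus strand): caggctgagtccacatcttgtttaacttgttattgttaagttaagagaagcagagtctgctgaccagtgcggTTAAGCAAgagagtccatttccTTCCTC
Itgam (chr7:128062540-128062639, plus strand): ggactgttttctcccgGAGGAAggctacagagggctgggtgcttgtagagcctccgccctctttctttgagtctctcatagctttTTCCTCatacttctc
Trem2 (chr17:48346301-48346400, plus strand): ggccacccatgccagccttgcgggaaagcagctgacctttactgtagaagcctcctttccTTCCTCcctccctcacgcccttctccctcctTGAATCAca
In the full windows GAGGAA lay in 5 of the 6 genes, and in 31.3% of the 27025 genes of the table. In Fcgr3 it ended 1 base before the start, and Itgam held 3 copies. The Lyz2 window held none of the 4 motifs searched. TTGCNNAA lay in 3 of the 6 (Cd68, Fcgr3 and Trem2) against 12.2% of genes, and TGANTCA in 2 (Cd68 and Trem2) against 8.97%. TATAAA, the TATA box, lay in 0 of the 6 against 15.7%. A match is a description of the letters and not a measured binding site, and the motifs were chosen with the genes' pattern known.

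Mechanical load was compared first at day 6, after 48 h of load. None of the 10 genes passed the test there, although all 10 means were higher in stressed wounds, with a median log2 difference of 0.36. Over all genes 0.033% were called higher in this comparison, and the median difference of all genes was 0.01. Cd68 stood at 0.19, 0.87, -0.09 and 0.01 in the unstressed replicates 1 to 4 and at 0.95, 0.29, 1.01 and 0.28 in the stressed ones, and the groups overlapped. The difference was 0.39 (95% interval -0.32 to 1.10). That interval leaves room for a difference of any size from a small decrease to more than a doubling. Csf1r had the smallest difference, 0.14 (95% interval -0.51 to 0.79), and its sign rested on unstressed replicate 4, without which it was -0.01. Msr1 had the largest, 0.68 (95% interval 0.05 to 1.31, limma adjusted p = 0.727). It was the 1 member with an unadjusted p under 0.05, a mark that 6.17% of all genes reached.

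Trem2 was the 1 gene whose day 6 groups did not overlap. Its unstressed values were -0.22, 0.01, 0.07 and -0.01 and its stressed values 0.54, 0.36, 0.29 and 0.11, so that the lowest stressed array lay just above the highest unstressed one. Complete separation in this direction occurred in 3.35% of all genes at day 6. The difference of 0.36 had a limma adjusted p of 0.931.

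At day 14, after 10 days of load, 8 of the 10 genes were higher in stressed than in unstressed wounds (limma with Benjamini-Hochberg adjustment over all 18193 genes), and all 10 differences were positive. Of all genes, 3.88% were called higher in this comparison. The median difference of the 10 genes was 1.44, or 2.72-fold if the values are log2, while that of all genes was 0.01. The groups did not overlap in the same 8 genes, with every stressed array above every unstressed one, as in 5.86% of all genes. Msr1 and Cd14 did not pass the test.

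The lysosomal pair had the largest differences of the 10. Cd68 stood at -2.43, -2.94, -3.16 and -2.19 on the unstressed replicates 1 to 4 and at -0.85, -0.01, -1.78 and -1.05 on the stressed ones. Its lowest stressed array, replicate 3, was still above the highest unstressed array, replicate 4. The difference was 1.76 (SE 0.33, limma adjusted p = 0.0063), or 3.38-fold on a log2 scale. Lyz2 stood at -2.22, -2.02, -3.11 and -1.21 in unstressed and -0.70, -0.04, -0.63 and -0.22 in stressed wounds. The unstressed arrays of Lyz2 were the widely scattered ones, from -3.11 to -1.21, while the stressed arrays lay within 0.66 of each other. Its difference was 1.74 (SE 0.30, limma adjusted p = 0.0039).

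Both Fc receptors rose with load at day 14. Fcgr1, the high-affinity IgG receptor, stood at -3.73, -3.64, -3.49 and -3.11 in unstressed and -2.18, -0.54, -2.37 and -2.0 in stressed wounds. The unstressed arrays lay within 0.62 of each other, and stressed replicate 2 stood well above the other 3 stressed arrays. The difference was 1.72 (SE 0.32, limma adjusted p = 0.0056). A further Fcgr1 probe set, 1436625_at, gave 0.55 (limma adjusted p = 0.091 over all probe sets). Fcgr3, a low-affinity receptor that activates through the common gamma chain, stood at -1.53, -1.92, -2.04 and -1.27 in unstressed and -0.84, 0.07, -0.70 and -0.55 in stressed wounds. Its groups were apart, with a difference of 1.18 (SE 0.27, limma adjusted p = 0.015). Fcgr3 lost its call without stressed replicate 2 (adjusted p = 0.054).

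Itgam stood at -1.69, -1.85, -2.12 and -1.38 in unstressed and -0.33, 0.73, -1.13 and -0.16 in stressed wounds at day 14. Stressed replicate 2 was again the highest and stressed replicate 3 the lowest, and the groups were apart by 0.25. The difference of 1.54 (SE 0.39) had the highest adjusted p of the 8 called genes, 0.025 in limma. This call was lost without unstressed replicate 2 or 3 or stressed replicate 1 (adjusted p = 0.054, 0.059 and 0.052), and without stressed replicate 2 it was 0.089.

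Csf1r stood at -1.76, -1.47, -2.43 and -1.65 in unstressed and -0.41, 0.28, -1.06 and -0.33 in stressed wounds, again without overlap, and the difference was 1.45 (SE 0.30, limma adjusted p = 0.011). Its other probe sets gave 1.08 (1419872_at, adjusted p = 0.021) and 1.0 (1419873_s_at, adjusted p = 0.056) in limma. Adgre1 stood at -1.90, -2.01, -2.68 and -1.38 in unstressed and -1.02, 0.02, -0.69 and -0.52 in stressed wounds. The highest unstressed Adgre1 value, on replicate 4, was 0.36 below the lowest stressed one, on replicate 1. The difference was 1.44 (SE 0.27, limma adjusted p = 0.0059).

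Cd14 and Msr1 were the 2 genes whose day 14 groups overlapped. Cd14 stood at -1.91, -2.10, -2.19 and -1.24 in unstressed and -1.31, -0.47, -1.34 and -1.16 in stressed wounds. The overlap came from unstressed replicate 4, which lay above stressed replicates 1 and 3. The difference was 0.79 (95% interval 0.27 to 1.31, limma adjusted p = 0.058). Without that array the adjusted p was 0.020.

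Msr1, through its representing probe set 1448061_at, stood at -1.63, -1.44, -1.67 and -1.02 in unstressed and -1.35, -0.47, -0.68 and -0.57 in stressed wounds. Stressed replicate 1 lay among the unstressed arrays. The difference was 0.67 (95% interval 0.04 to 1.30, limma adjusted p = 0.176, or 0.0497 once same-numbered arrays were paired in a replicate block). The 4 probe sets of Msr1 disagreed, and with their mean as the gene's value the adjusted p was 0.037. With p-values adjusted over all probe sets in limma, 1425434_a_at rose by 1.46 (adjusted p = 0.0065) and 1422062_at by 0.62 (adjusted p = 0.038). In 1425435_at the difference was -0.08 (adjusted p = 0.871). Probe sets with a and s suffixes can match several transcripts, and which Msr1 transcripts each one reads is not given in the files.

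Trem2 stood at -2.17, -2.38, -2.15 and -1.88 in unstressed and -0.71, 0.10, -1.43 and -1.33 in stressed wounds through 1421792_s_at. The unstressed arrays lay within 0.50 of each other, while the stressed ones ranged over 1.52. The difference was 1.30 (SE 0.25, limma adjusted p = 0.0067). The other Trem2 probe set, 1421226_at, did not follow it. There the day 14 difference was 0.03 (adjusted p = 0.935 over all probe sets). With its s suffix 1421792_s_at can match several transcripts, and which transcripts either Trem2 probe set reads is not given. Over all 17 probe sets, 16 differences were positive and 11 were called higher at day 14, against 3.31% of all probe sets.

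**Figure D3:**
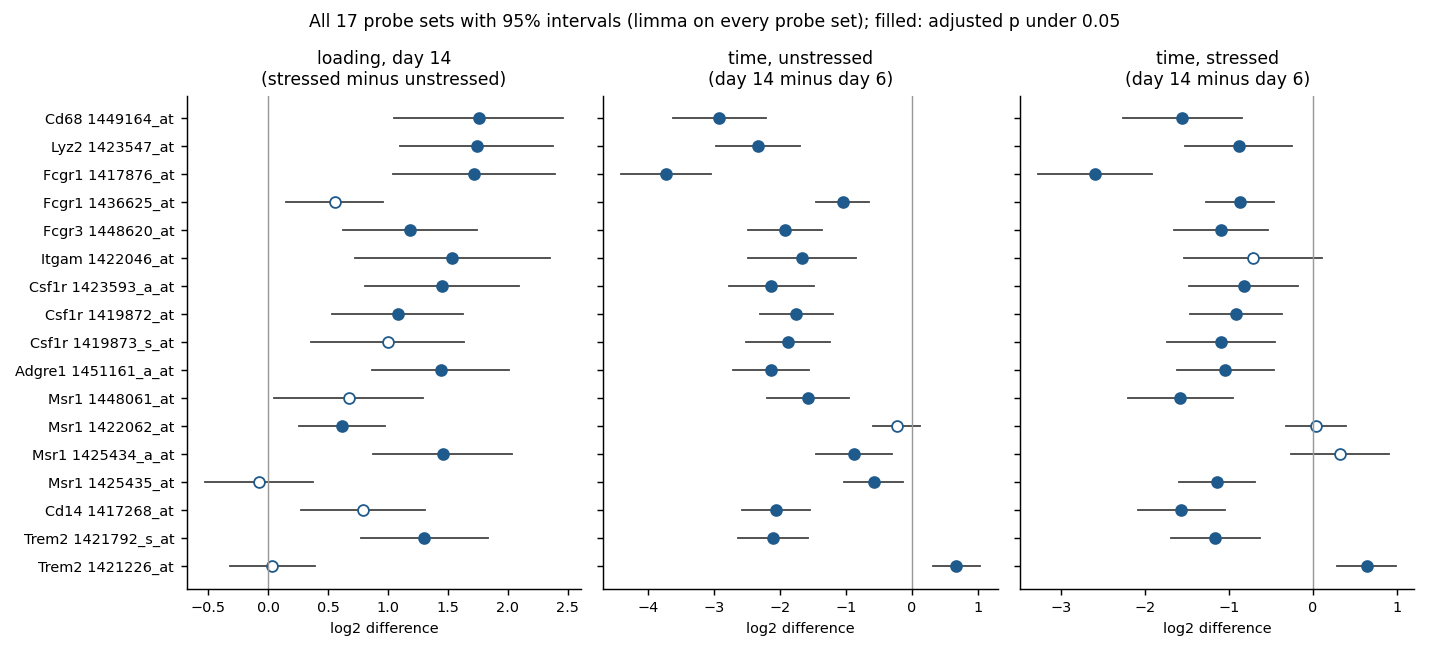
Log2 difference with its 95% interval for each of the 17 probe sets, in panels for load at day 14 and for time in unstressed and stressed wounds, with filled points for an adjusted p under 0.05 over all probe sets. The Msr1 probe sets spread from -0.08 to 1.46 for load at day 14, and Trem2 1421226_at lies on the other side of 0 from 1421792_s_at in both time comparisons.

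The array with the highest values was the same for every gene of the stressed day 14 group. Replicate 2 led in 10 of 10 genes, and its mean over the 10 genes was -0.03 against -0.97, -1.18 and -0.79 on replicates 1, 3 and 4. Among the unstressed day 14 arrays, replicate 4 was highest in 9 of 10 genes and had a mean of -1.63 against -2.10, -2.18 and -2.50 on replicates 1 to 3. The genes thus varied together between arrays of a group as well as between groups. Without stressed replicate 2 at day 14, 6 of the 10 genes were called, Fcgr3 and Itgam being lost, beside 1.82% of all genes called higher. Without unstressed replicate 4, 9 were called, beside 3.61% of all genes.

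The difference with load at day 14 was present in both kinds of array told apart by Xist. Each gene was higher in the stressed than in the unstressed wound for all 4 same-numbered pairs of arrays. For the 8 genes whose day 14 groups did not overlap, these signs follow from that separation and add nothing to it. The median difference over the 10 genes was 1.65 over the low-Xist pairs (replicates 1 and 2) and 1.11 over the high-Xist pairs (replicates 3 and 4). Lyz2 differed by 1.74 and 1.73 in these sets, and Adgre1 by 1.45 and 1.43. Trem2 was 1.97 and 0.64, and Fcgr1 was 2.32 and 1.12. Each set holds 2 arrays per group, and the difference between the sets was not tested. With the day 14 arrays limited to the high-Xist ones, limma called 0 of the 10 genes, 7 of them having an unadjusted p under 0.05, beside 1.54% of all genes called higher. With the low-Xist arrays alone it called 9, beside 8.05% of all genes. Both of these settings were chosen after seeing the data.

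The day 14 calls above come from a fit without pairing, and they also rested on how the spread was estimated. Fitted to the 8 day 14 arrays alone, limma called 0 of the 10 genes, with adjusted p-values of 0.074 to 0.174, and 0.429% of all genes higher. All 10 had an unadjusted p under 0.05 in that fit. With the replicate number as a block in that fit, 3 were called (Cd68, Lyz2 and Csf1r), beside 1.45% of all genes. With the Xist class as a block in it, 6 were called, beside 2.38% of all genes, and Fcgr1 and Trem2 were the 2 lost from the 8 (adjusted p = 0.0503 and 0.0540). After quantile normalization 1 of the 10 was called, Lyz2, whose difference became 1.18 (adjusted p = 0.028), beside 0.55% of all genes. The sign stayed positive for all 10 genes under each of these settings, which, apart from quantile normalization, leave the differences themselves unchanged.

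**Figure D4:**
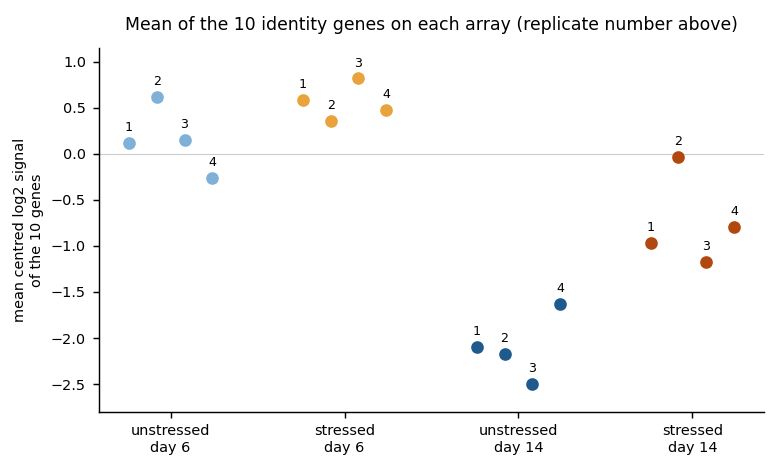
Mean centred log2 signal of the 10 genes on each array, by group, with the replicate number at each point. Stressed day 14 replicate 2, at -0.03, is close to the day 6 arrays, and the 4 unstressed day 14 arrays lie between -2.50 and -1.63.

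The load effect at day 14 was then compared with that at day 6. The difference between the 2 effects was positive in 9 of the 10 genes, with a median of 1.02, and none passed the test in limma. At an unadjusted p under 0.05 stood 7 of them, as did 10.1% of all genes, and 0.022% of all genes were called higher in this test. For Lyz2 the effect at day 14 exceeded that at day 6 by 1.45 (95% interval 0.54 to 2.35, limma adjusted p = 0.271). For Cd68 it was 1.37 (95% interval 0.36 to 2.37, limma adjusted p = 0.327). Msr1 differed by -0.01 (95% interval -0.89 to 0.88), the means of the stressed wounds being higher by 0.68 at day 6 and 0.67 at day 14. With array weights 2 of the 10 passed, where 200 of the 18193 genes were called higher and 369 lower. With the low-Xist arrays alone 3 passed, where 521 of all genes were called higher and 897 lower.

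Between day 6 and day 14, all 10 genes fell in unstressed wounds. All 10 had every day 14 array below every day 6 array, as 27.9% of all genes did, and 31.8% of all genes were called lower in this comparison. The median change of the 10 genes was -2.12 and that of all genes -0.09. Fcgr1 fell most. It stood at 0.37, 0.29, 0.56 and -0.29 at day 6 and at -3.73, -3.64, -3.49 and -3.11 at day 14, a change of -3.73 (SE 0.32, limma adjusted p = 2.1e-06), or 13.2-fold lower on a log2 scale. Cd68 fell by 2.92 (SE 0.33, limma adjusted p = 1.5e-05) from the day 6 values given above. Msr1 fell least, by 1.57 (SE 0.30, limma adjusted p = 0.00056), and Itgam by 1.67 (SE 0.39, limma adjusted p = 0.0024).

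The unstressed day 6 arrays scattered most in Itgam, with an SD of 0.74 against 0.13 to 0.57 in the other members. They stood at -0.37, 0.86, 0.05 and -0.89 in unstressed wounds, with replicate 2 highest and replicate 4 lowest. The remaining 6 genes, Lyz2, Fcgr3, Csf1r, Adgre1, Cd14 and Trem2, fell by 1.92 to 2.33 in unstressed wounds. After quantile normalization Itgam and Msr1 no longer passed (limma adjusted p = 0.16 and 0.051).

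In stressed wounds 9 of the 10 genes fell between the days, while 34.3% of all genes were called lower, and the median change was -1.13 against -0.14 for all genes. All stressed day 14 arrays lay below all stressed day 6 arrays in 8 of the 10 genes, as in 29.1% of all genes. Fcgr1 stood at 0.83, 0.77, 1.19 and 0.51 at day 6 and fell by 2.60 (SE 0.32, limma adjusted p = 2.8e-05). Cd14, at 0.21, 0.32, 0.85 and 0.61 at day 6, fell by 1.57 (SE 0.24, limma adjusted p = 0.00013). Msr1 changed by -1.58 in stressed wounds and by -1.57 in unstressed ones. The difference between these changes had the 95% interval given above.

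Itgam stood at 0.45, -0.15, 1.01 and 0.67 in stressed wounds at day 6. Its stressed day 14 values overlapped these, and its change of -0.72 did not pass (95% interval -1.54 to 0.11, limma adjusted p = 0.123). Without stressed day 14 replicate 2 it passed, at -1.03 (adjusted p = 0.029). Csf1r, at 0.50, -0.11, 0.76 and 0.63 at day 6, also overlapped and fell by 0.83 (SE 0.30, limma adjusted p = 0.03). This call was lost without stressed day 6 replicate 1, 3 or 4 or stressed day 14 replicate 1 or 3, with adjusted p-values of 0.056 to 0.108. Lyz2, at 0.52, 0.36, 0.51 and 0.55 at day 6, fell by 0.88 (SE 0.30, limma adjusted p = 0.021), and its call was lost without stressed day 14 replicate 1 or 3 (adjusted p = 0.058 and 0.056). The smaller stressed than unstressed change is the same quantity as the difference between the load effects given above, and none of the 10 genes passed that test. With the mean of its probe sets, which ran opposite ways, Trem2 changed by -0.26 in stressed wounds and lost its call (limma adjusted p = 0.25).

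The time course was not the same for all probe sets. In limma over all probe sets, 15 of the 17 fell in unstressed wounds, where 23.4% of all probe sets fell. In stressed wounds 13 of the 17 fell, as did 26.6% of all. One member probe set rose in each, Trem2 1421226_at, by 0.67 (adjusted p = 0.0053) and 0.64 (adjusted p = 0.0063). Its values were 0.09, -0.31, -0.17 and 0.00 in unstressed wounds at day 6 and 0.25, 0.35, 0.65 and 1.04 at day 14. Of all probe sets, 16.8% rose in unstressed and 18.7% in stressed wounds. Msr1 1425434_a_at fell in unstressed wounds by 0.88 (adjusted p = 0.019), while its change in stressed wounds was 0.32 (adjusted p = 0.362). Msr1 1422062_at changed by -0.23 (adjusted p = 0.281) and 0.04 (adjusted p = 0.874).

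Over the 16 arrays the genes ran closely together. The median Pearson correlation of the 45 pairs was 0.92, from 0.76 for Itgam and Msr1 to 0.98 for Lyz2 and Adgre1. These points share their groups and arrays. With each group's mean taken away, the median was 0.68, from 0.15 for Csf1r and Msr1 to 0.93 for Itgam and Csf1r. Cd68 was closest to the mean of the other 9 genes (r = 0.98) and Msr1 farthest from it (r = 0.87). Outside the 10, the genes most like their standardized mean over the 16 arrays were C1qb (r = 0.993), Fcer1g (0.992), Clec4a3 (0.990), P2ry6 (0.989) and C3ar1 (0.986). With group means taken away these were 0.97, 0.92, 0.93, 0.92 and 0.85. At day 14 the stressed wounds were higher in C1qb by 1.5, in Fcer1g by 1.35, in Clec4a3 by 2.33, in P2ry6 by 1.26 and in C3ar1 by 1.99, with limma adjusted p-values of 0.0020 to 0.017. They were chosen for their likeness to the members on the same arrays, so these differences follow from the choice and are no separate evidence.

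Genes of the pathways around the members were counted in the same fit. For CSF1 signalling 7 of 7 listed genes were measured, with a median difference of 0.78 for load at day 14. At day 14 Csf1, a ligand of the CSF1 receptor, differed by 0.83 (limma adjusted p = 0.093), Il34, its other ligand, by 0.29 (0.405) and the myeloid growth factor Csf2 by -0.03 (0.954). The gene called was the GM-CSF receptor chain Csf2ra, at 0.78 (limma adjusted p = 0.0498), named after its value was seen. In unstressed wounds over time 4 of the 7 fell, among them Il34 by 1.94, and Csf2 and the receptor Flt3 rose by 0.49 and 0.60. In stressed wounds 3 fell and Flt3 rose by 0.73. For this and the later lists, 31.8% of all genes were called lower over time in unstressed and 34.3% in stressed wounds. Called higher were 23.1% and 24.0% of all genes. For load at day 14 the shares of all genes were 3.88% called higher and 4.27% called lower. A list count near these shares says little about that list.

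Of 7 measured transcription factors of myeloid cells, 2 were higher with load at day 14 (list median 0.42), beside 3.88% of all genes. Spi1, which encodes PU.1, was higher by 1.42 (limma adjusted p = 0.0049) and Runx1 by 1.39 (0.029). The C/EBP genes Cebpa and Cebpb differed by -0.33 (0.313) and 0.24 (0.655). Over time 6 of the 7 fell in unstressed and 6 in stressed wounds, and Spi1 fell by 2.41 and by 1.37.

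Of 9 measured partners of the Fc receptors, 5 were higher with load at day 14 (list median 0.71), beside 3.88% of all genes. Fcer1g, the common gamma chain that Fcgr1 and Fcgr3 need to signal, was higher by 1.35 (limma adjusted p = 0.0064). The inhibitory receptor Fcgr2b was higher by 2.15 (0.0057) and the activating Fcgr4 by 1.16 (0.022). Tyrobp, the adaptor of Trem2, was among the called genes, at 1.98 (0.00039). All 9 fell over time in unstressed wounds and 8 in stressed wounds.

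Of 7 measured genes of the Cd14 and TLR4 pathway (list median 0.26), 1 was called higher at day 14, beside 3.88% of all genes. It was Ly96, whose product MD-2 binds lipopolysaccharide with TLR4, at 1.08 (limma adjusted p = 0.0039). Tlr4 itself differed by 0.13 (0.765), and Lbp, the carrier of lipopolysaccharide, by 0.49 (0.705). Over time Tlr4 fell by 1.5 in unstressed and 1.67 in stressed wounds. In each, 4 of the 7 fell, beside 31.8% and 34.3% of all genes. Traf6, a signalling ligase downstream, rose by 1.0 and 1.18.

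Among the 7 measured integrin partners and trafficking genes (list median 0.76), 4 were called higher with load at day 14. Itgb2, the beta chain that pairs with Itgam, was higher by 1.78 (limma adjusted p = 0.0057) and Itgax by 1.45 (0.0057), while Itgal differed by 0.66 (0.183). Over time 7 fell in unstressed and 6 in stressed wounds. All 3 genes of complement C1q, a product of macrophages, were higher with load at day 14, C1qa by 1.24, C1qb by 1.5 and C1qc by 1.0. All 3 fell over time in unstressed wounds, and C1qb and C1qc fell in stressed wounds.

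Scavenger receptors other than Msr1 moved both ways. Of 8 measured (list median -0.25), Marco (0.77, limma adjusted p = 0.018) and Stab1 (0.95, 0.011) were higher with load at day 14, and Cd36 (-1.73, 0.014) and Scara5 (-2.27, 0.036) were lower. Scarb1 differed by -0.38 (0.367). Cd36 is also abundant in adipocytes and muscle. In unstressed wounds over time Marco rose by 0.50 and 2 of the 8 fell, beside 31.8% of all genes. In stressed wounds Marco rose by 1.27 and 5 fell, beside 34.3% of all genes.

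Of 9 lysosomal and phagocyte genes (list median 0.77), 3 were higher with load at day 14, Ctss by 2.36 (limma adjusted p = 0.00012), Mpeg1 by 1.91 (0.00023) and Lamp2 by 1.08 (0.036). The cathepsins Ctsb and Ctsz differed by 0.77 (0.209) and 0.30 (0.482). Ctss, a cathepsin of antigen-presenting cells, was also the 1 gene of the 155 in the companion lists called for the difference between load effects. That difference was 2.16 (limma adjusted p = 0.046), in a test that called 7 of all 18193 genes. Over time 7 fell in unstressed and 6 in stressed wounds, where Lamp2 rose by 0.93.

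**Figure D5:**
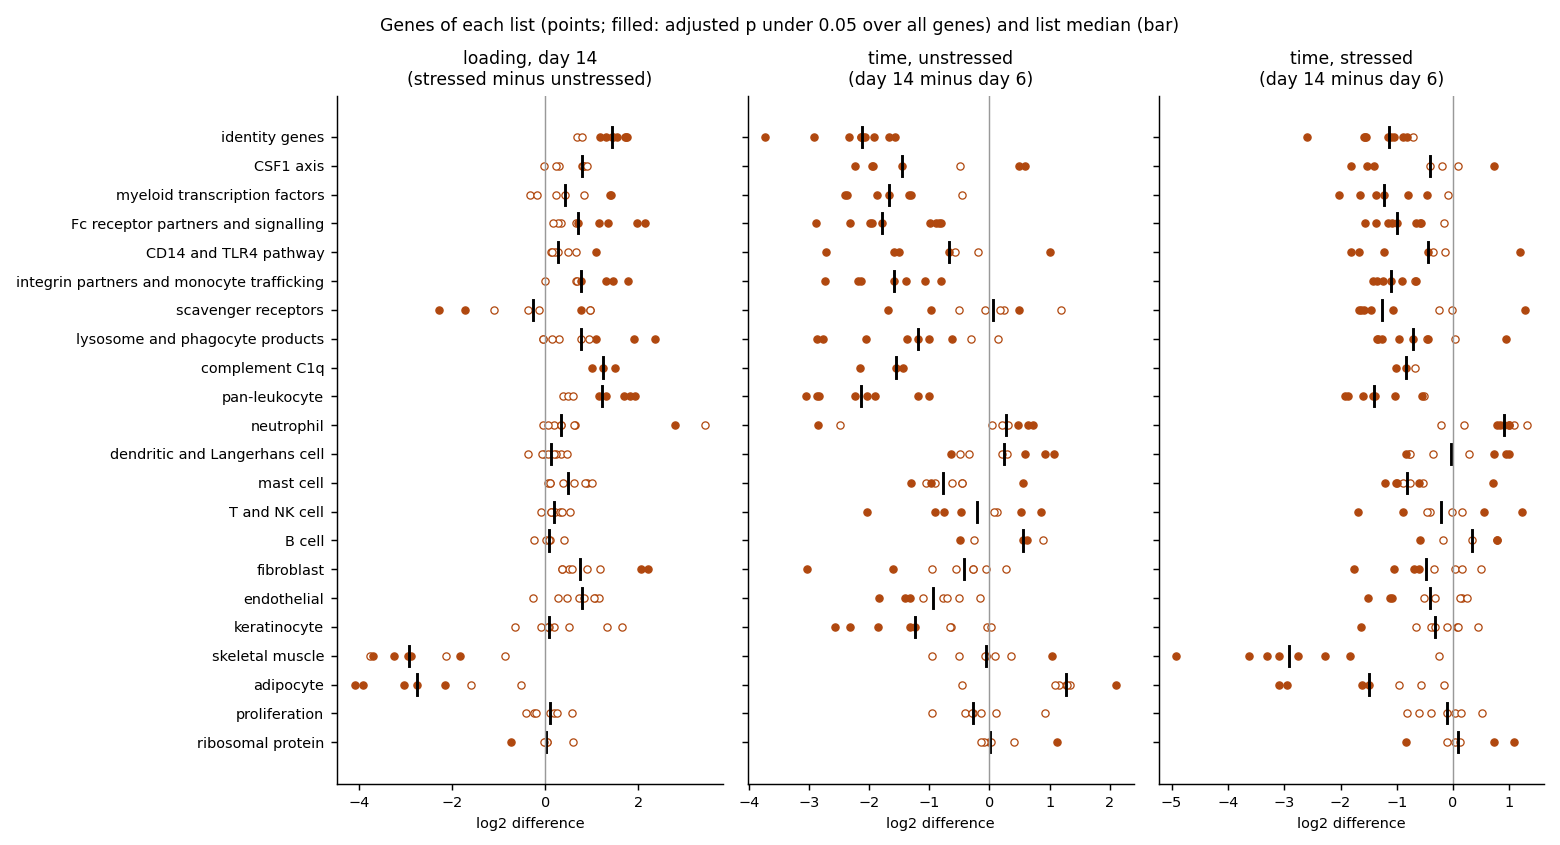
Log2 difference of every measured gene of the member list and the companion lists, 1 row per list, with panels for load at day 14 and for time in unstressed and stressed wounds, with the list median marked and filled points for an adjusted p under 0.05 in limma. For load at day 14 the leukocyte and macrophage lists lie mostly to the right of 0, and the muscle and adipocyte lists to the left, with medians of -2.92 and -2.76.

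Other cell types also differed between the groups compared. General leukocyte genes were higher with load at day 14 in 5 of 8 (list median 1.23), among them Ptprc, which encodes CD45, by 1.16 (limma adjusted p = 0.033) and Cd53 by 1.93 (0.0024), with Laptm5 at 0.39 (0.509). Over time 8 fell in unstressed and 7 in stressed wounds. Of 9 measured neutrophil genes (list median 0.34), 2 were called higher at day 14, beside 3.88% of all genes. They were S100a8 (2.78, 0.038) and the receptor Cxcr2 (0.63, 0.047), while S100a9 stood at 3.43 (0.058) and the granule enzyme Mpo at 0.20 (0.532). The mean of the neutrophil genes on an array ran from 0.16 to 0.93 in stressed and from -0.60 to 0.04 in unstressed wounds at day 14. These means include S100a8 and S100a9, whose differences of 2.78 and 3.43 stood far above the list median of 0.34. Between the days, S100a8 fell by 2.86 in unstressed wounds, where Mpo, Ltf and Ngp rose by 0.47 to 0.72. In stressed wounds 5 neutrophil genes rose and 0 fell. Their part in the member results was not tested.

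Muscle and fat genes moved against the members at day 14. Of all genes, 4.27% were called lower with load at day 14. Of 8 skeletal muscle genes 5 were lower in stressed wounds, among them Acta1 (-1.83), while Ckm stood at -0.87 (limma adjusted p = 0.113) and Mylpf at -2.14 (0.0535). The muscle mean on an array ran from -4.19 to -0.51 in stressed and from -1.61 to 0.80 in unstressed wounds. Of 7 measured adipocyte genes 5 were lower, among them Adipoq (-4.09), Plin4 (-2.76) and Cidec (-3.02). The adipocyte mean ran from -2.44 to 0.42 in stressed and from 0.55 to 2.19 in unstressed wounds. Of 8 fibroblast genes (list median 0.74) 2 were higher, Col1a2 by 2.20 (0.00041) and Lum by 2.06 (0.0069), while Pdgfra and Pdgfrb stood at 0.90 (0.052) and 1.17 (0.054). The share of the member differences that goes with this change in tissue makeup was not tested. For load at day 6 limma called 0 of the 155 genes of the companion lists, beside 10 of all 18193 genes. Of the 155, 11 had an unadjusted p under 0.05, as did 6.17% of all genes.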

How the data were processed

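Mouse dorsal wound RNA was measured on 16 Affymetrix arrays, 4 in each of 4 groups. The authors deposited log values, read here as log2, made in GeneSpring GX 11.0 per the series design text. The sources used here do not state the background correction, summarization or normalization. Values are centred per probe set by the authors, on a reference that is not stated. Only 6.27% of probe set medians lay within 0.001 of 0, so for most probe sets 0 is not the median of these arrays. The widest range of a probe set, 10.08, exceeds the 4.82 that log10 of a scan allows, and natural logs remain possible. No level, background or depth can be read, and the number of arrays limits the precision.

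Of 45101 rows, 34945 probe sets had 1 symbol in the platform annotation, 932 had several, 9211 none and 64 were controls. The probe set with the largest interquartile range stood for each of 18193 genes. The limma 3.58.1 fit (R 4.3.3) used all 16 arrays with lmFit and eBayes, 5 contrasts and Benjamini-Hochberg adjustment over all genes at 0.05. A second fit used every probe set. Scripts were tested on simulated data. Alternatives were quantile normalization, means of probe sets, the compared arrays alone, replicate and Xist blocks (also on the compared arrays alone), array weights, a filter on variation, natural logs and leaving out each array.

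Deviations of same-numbered day 14 arrays from their group means correlated at 0.18 to 0.30. The best match of unstressed replicate 2 was stressed replicate 1, and same-numbered arrays also share their Xist kind. Whether they are true pairs is therefore not settled. The main fit has no replicate block, so its day 14 calls are unpaired, and blocked values are given as alternatives. At day 6 the deviations of same-numbered arrays correlated at -0.41 to 0.0049 and between days at -0.18 to 0.12. The genes named are the 10 members, the first 3 measured genes of each list with any called against its majority, and the 5 genes most like the members. Other list genes named, such as Csf2ra, Runx1, Tyrobp, Stab1, Scara5, Mpeg1, Lamp2, Cxcr2, Ltf, Ngp and Lum, were picked with their values in view. The members and lists were chosen with earlier results of these data known. Listed genes without a probe set of 1 symbol were not analysed here.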

Additional observations from a re-analysis of the deposited data

Results flagged for a closer look

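The second Trem2 probe set, 1421226_at, had 1 array apart from the rest in the stressed day 14 group. Replicate 2 stood at 0.94, while the other 3 arrays lay between 0.46 and 0.53. It was the 1 group of 4 arrays, of 68 formed by the 17 probe sets and 4 groups, in which the gap of an extreme array to its neighbour, as a share of the group's range, passed Dixon's 95% critical value. Chance alone passes that value in about 5% of groups. The same array was the highest of its group for all 10 genes, and this probe set is not the one that represents Trem2 in the comparisons.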

How the results depend on the processing

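Of 1040 gene values recomputed under the alternatives, 970 kept their direction and their side of the threshold, 49 no longer passed, 12 newly passed and 9 changed sign. The reading as natural logs only rescales the differences and keeps every p-value, so its values were bound to stay the same. At day 6 the count of called members was 0 under each setting run, but the unadjusted result depended on the setting. In the main limma fit 1 of the 10 had an unadjusted p under 0.05, beside 1123 of the 18193 genes. With array weights 9 did, beside 3173, and after quantile normalization 6, beside 3390. At day 14 the main count of 8 became 1 after quantile normalization, which makes the unequal array spreads equal by construction. It was 0 with the compared arrays alone, 3 with the replicate block in that fit and 0 with high-Xist day 14 arrays. The last 2 settings, and that with low-Xist arrays alone, were chosen after seeing the data. The main fit shared its estimate of the spread between the days. With the compared arrays alone, calls over all genes went from 1483 to 95 at day 14 and from 10 to 24 at day 6. The cause was not tested. Leaving out 1 array gave 6 to 9 called members at day 14. The replicate block over all arrays gave 9 through Msr1 and, in stressed wounds over time, 8, where Csf1r was lost (adjusted p = 0.052). The numbers do not pair arrays across days. For the difference between the load effects, 0 became 2 with array weights and 3 with low-Xist arrays, and the cause was not tested. Over time the counts were 8 to 10 in unstressed and 7 to 10 in stressed wounds. Under quantile normalization the median change of all genes over time moved from -0.09 to 0.01 in unstressed and from -0.14 to 0.00 in stressed wounds.

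Changes of sign were in values near 0. Csf1r at day 6 ranged from -0.013 (without unstressed replicate 4) to 0.38 without single arrays. The Msr1 difference between the load effects was 0.23 with means of probe sets, 0.045 with high-Xist day 14 arrays and -0.24 to 0.25 without single arrays, 6 of them turning its sign. Over all genes, calls at day 6 numbered 10, and 449 with quantile normalization, 453 with array weights, 31 with low-Xist arrays, 24 with the compared arrays, 18 with high-Xist day 14 arrays and 1 with the replicate block. At day 14 they numbered 1483, and 198, 2726, 3393, 95, 485 and 1341 in the same order, 2232 with the Xist block and 2567 with every probe set. For the difference they numbered 7, and 569 with array weights, 1418 with low-Xist arrays, 52 with the Xist block, 40 with high-Xist day 14 arrays, 19 with the replicate block, 14 with the variation filter, 4 with quantile normalization, 3 with every probe set and 1 with means of probe sets. Leaving out 1 array gave 2 to 9 at day 6, 621 (without stressed day 14 replicate 2) to 2696 (without stressed day 14 replicate 4) at day 14, and 1 to 191 for the difference, with 191 without stressed day 14 replicate 4 and 61 without unstressed day 14 replicate 3. Depth and signal over background could not be judged from centred values.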

Other observations

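Several lists of other immune and skin cell markers held 0 called genes for load at day 14 in limma. Of all genes, 3.88% were called higher and 4.27% lower there, so 0 calls in lists this short are near that share. These lists were 8 dendritic and Langerhans cell genes (median difference 0.13, 0 with an unadjusted p under 0.05), 8 T and NK cell genes (0.18, 0), 5 B cell genes (0.08, 1), 8 mast cell genes (0.50, 1), 9 keratinocyte genes (0.09, 2) and 8 endothelial genes (0.78, 4). The neutrophil list, with 2 called genes, had a median difference of 0.34 and 3 genes with an unadjusted p under 0.05. Whether any list differs from another or from the macrophage genes was not tested. Of 7 proliferation genes 0 were called and 0 had an unadjusted p under 0.05, and of 6 ribosomal protein genes Rps6 was lower at -0.74 (limma adjusted p = 0.025).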
